A study of Mus musculus with 6 samples.

Results

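This account covers 46 genes for hnRNP proteins, SR proteins and other regulators of alternative splicing in MIN6 cells whose TDP-43 had been knocked down. The genes were taken from a list of symbols, and each was represented by the brightest probe set that names that gene alone. Of the 46 genes, 44 had such a probe set, and all 44 passed the filter on low signals. They stand among 12619 genes tested. The remaining genes were Hnrnpa3, whose probe sets in the annotation are shared with another gene, and Srsf7, which the annotation used here does not list. No value is given for either.

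MIN6 is an insulin-producing cell line derived from a mouse insulinoma, a tumour of pancreatic beta cells. On 3 arrays the cells had been electroporated with 100 pmol of an siRNA against TDP-43, the protein encoded by Tardbp, and on 3 arrays with 100 pmol of a control siRNA. Cells of both groups therefore went through electroporation with the same amount of siRNA. The siRNA sequences and the time between electroporation and harvest are not given in the sources used here, and the labels do not tie the replicates to separate cultures, so p-values measure only the spread between these arrays.

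TDP-43 is itself a member of the wider hnRNP group, proteins that coat nascent transcripts. In general, hnRNP proteins of the A and B type and PTB often silence splice sites, whereas SR proteins, which carry a domain rich in arginine and serine, often promote exon inclusion. Other regulators such as NOVA, ELAV, CELF, MBNL and RBFOX proteins act mostly on tissue-restricted exons, many of them in neurons, and endocrine cells share part of that neural programme. Many of these proteins limit their own transcripts by steering them into forms that are degraded.

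Values are signals of MAS5, the array maker's summary of each probe set, on a linear scale. The signals were set to a common average, with a trimmed mean of 500.003 on every array. Each difference is the mean log2 level on TDP-43 siRNA arrays minus that on control siRNA arrays, after 12 was added to each signal, with the standard error (SE) of a limma fit across all 12619 genes. Adjusted p-values are from that fit with Benjamini-Hochberg adjustment over all genes, and a gene changed where its value was below 0.05. Log2 values of the 12619 genes correlated between arrays at 0.985 to 0.991. The beta cell markers measured, Ins2, Iapp, Pdx1, Nkx6-1, Slc2a2 and G6pc2, gave summed signals of 64283 to 70026 on TDP-43 siRNA arrays and 65623 to 68445 on control siRNA arrays. The alpha cell hormone gene Gcg also gave a strong signal, with means of 8165 after TDP-43 siRNA and 9264 after control siRNA. Its log2 difference was -0.17, whereas Irx1 was at 0.07 and Sst at 1.03. Sst was dim, with means of 62.4 after TDP-43 siRNA and 25.1 after control siRNA. These 3 markers of other islet cells summed to 8203 to 9091 after TDP-43 siRNA and 7693 to 11015 after control siRNA. Of the 20 marker genes measured for beta, other islet, acinar, duct, neuronal and stromal or immune cells, 0 passed the threshold. The TDP-43 siRNA arrays lay wholly to one side of the control siRNA arrays only for Sst and Col1a2. Sst was higher (limma adjusted p = 0.320), and Col1a2, also dim, was lower (limma adjusted p = 0.312). Such separation was seen for 18.3% of all genes. The 5 neuronal markers summed to 12771 to 13520 after TDP-43 siRNA and 12670 to 13010 after control siRNA. The 3 acinar and duct markers past the filter summed to 5095 to 6347 after TDP-43 siRNA and 5586 to 6312 after control siRNA. Most of that was Krt7. Of 6 stromal and immune markers 3 passed the filter. These summed to 151 to 196 after TDP-43 siRNA and 164 to 210 after control siRNA. Col1a2 was at -0.63, whereas Thy1 and Lyz2 were at 0.29 and 0.26. A lower signal can come from fewer cells that hold a transcript or from less of it per cell, which these arrays cannot tell apart.

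The siRNA lowered its target. Tardbp read 2257, 2249 and 1836 on the TDP-43 siRNA arrays, against 3748, 3940 and 3699 on the control siRNA arrays. The log2 difference was -0.85 (SE 0.08, n = 3 arrays per group, limma adjusted p = 0.00187), or 0.556 times the control level. This is the brightest of its 5 probe sets. The next brightest, 1455655_a_at, was at -0.86. The dimmer ones were at -1.41 (1434419_s_at, 0.377 times the control level), -1.27 (1428467_at, 0.414 times) and -1.24 (1436318_at, 0.424 times). The estimated size of the knockdown thus differed between probe sets, but 0 of all 10814 probe set pairs passed the direct test described below. Without an intensity trend in the variance model the limma adjusted p of Tardbp was 0.0608.

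On the brightest probe set, to which the values below refer unless another is named, none of the 44 splicing regulator genes changed. Over all genes tested the share that passed was 0.745%, so a list of 44 with 0 passing stands close to that background. That background moved with single arrays. It was 94 genes with all 6 arrays, 31 without control siRNA replicate 1, 253 without control siRNA replicate 3 and 44 to 56 without any one of the others, and it was 12 without the intensity trend, with 0 splicing regulators among them each time. The log2 differences ran from -0.31 for Hnrnpa0 to 0.15 for Khdrbs3, with a median of -0.05, where the median of all genes was 0.02. Below 0 lay 31 of the 44 genes, against 45% of all genes. At an unadjusted p below 0.05 there were 5 of the 44, 4 lower and 1 higher, which is 11.4% and near the 12.6% of all genes. The 3 TDP-43 siRNA arrays lay wholly to one side of the 3 control siRNA arrays for 7 of the 44 genes, 5 lower and 2 higher, which is 15.9% and again near the 18.3% of all genes (8.32% lower and 9.98% higher).

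The median SE was 0.06 for the 44 genes and 0.10 for all genes. The 95% confidence interval of the difference lay wholly between -0.5 and 0.5 for 43 of the 44 genes, which is less than 1.41-fold in either direction for that probe set. It lay between -0.25 and 0.25, or less than 1.19-fold, for 28 of them. Among all genes these limits held for 70.3% and 24.2%. The exception to the wider limit was Srrm4, whose dim probe set gave an interval from -0.53 to 0.22. Of all 161 probe sets of these genes, the wider limit held for 119. Intervals that reached beyond it while lying wholly below 0 included 1416721_s_at of Srsf6 (-0.52 to -0.13), 1423796_at of Sfpq (-0.57 to -0.16) and 1442745_x_at of Rbm39 (-1.02 to -0.04). These intervals are each probe set's own and are not adjusted for the number tested.

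**Figure D1:**
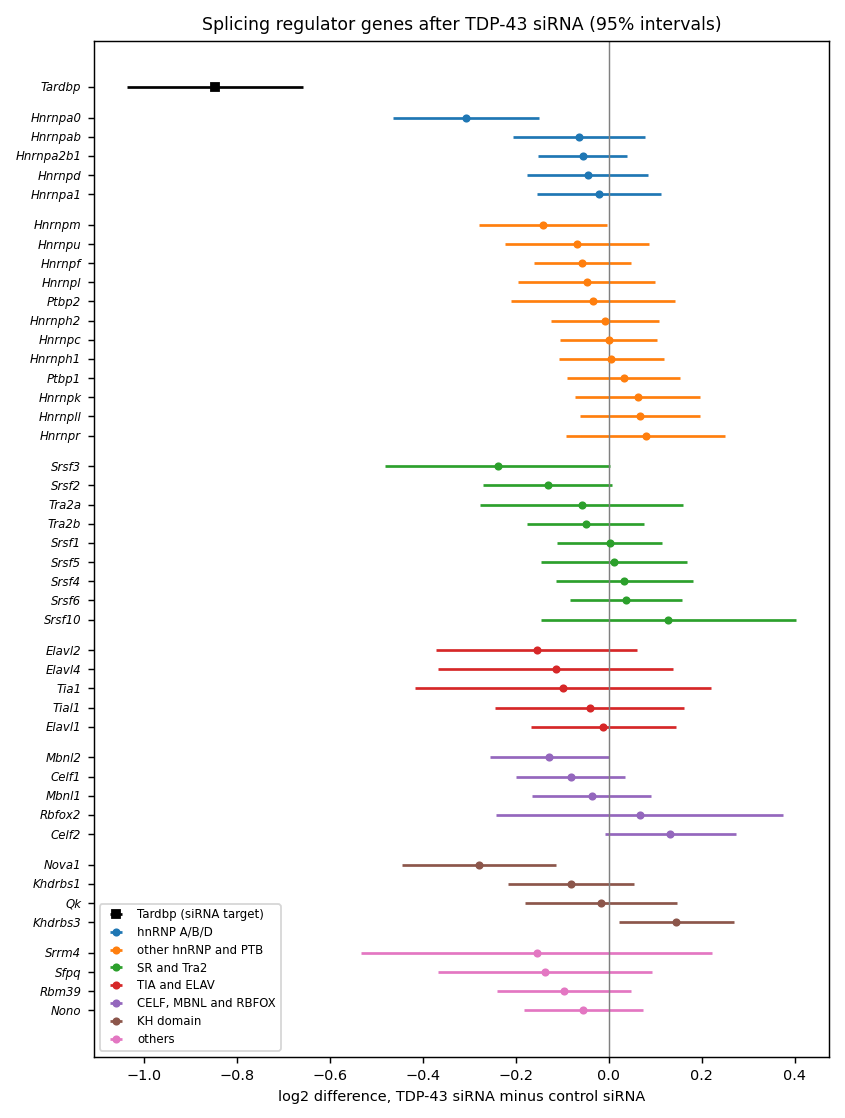
Log2 difference (TDP-43 siRNA minus control siRNA, horizontal axis) of Tardbp and of 44 splicing regulator genes, grouped by family and coloured by it. Points are estimates from the limma fit and bars are unadjusted 95% confidence intervals. Tardbp sits at -0.85, and the splicing regulators lie between -0.31 and 0.15.

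The hnRNP proteins of the A, B and D type bind UAG-like or AU-rich RNA, and those of the A and B type often silence splice sites. All 5 measured genes of this family lay below 0 on the brightest probe set, and 0 of 5 passed. Of their 18 probe sets 16 lay below 0, and the 2 above 0 were both of Hnrnpab. Hnrnpa0, an hnRNP A-type protein encoded by a gene without introns, came closest to the threshold of all 44. It read 3016, 2971 and 2613 on TDP-43 siRNA arrays, against 3675, 3410 and 3546 on control siRNA arrays, so the highest TDP-43 siRNA value lay below the lowest control value. The log2 difference was -0.31 (SE 0.07, 95% confidence interval -0.46 to -0.15, limma adjusted p = 0.0954). Hnrnpa0 has a single probe set, so no second part of the transcript was read.

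Hnrnpa2b1, whose protein binds TDP-43, read 13101, 13778 and 13559 after TDP-43 siRNA, against 14072, 13929 and 14044 after control siRNA. The groups did not overlap, yet the difference was only -0.06 (SE 0.04, limma adjusted p = 0.642). Its 4 probe sets all lay below 0, from -0.20 to -0.06, and 3 of the 4 kept the groups apart. The close relative Hnrnpa1, another partner of TDP-43, was at -0.02 with a 95% interval from -0.15 to 0.11. Its 3 probe sets also lay below 0, the lowest of them at -0.24. Hnrnpab was at -0.06, and Hnrnpd, or AUF1, known for its role in the decay of AU-rich mRNAs, was at -0.05, both with overlapping groups.

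The remaining hnRNP genes and the PTB pair made up 12 genes, of which 0 passed, and their median was -0.00. Hnrnpm, a GU-binding regulator of exon choice in epithelial and mesenchymal cells, was the lowest at -0.14 (SE 0.06, limma adjusted p = 0.384). Its signals were 3150, 3084 and 2992 after TDP-43 siRNA, against 3499, 3507 and 3186 after control siRNA. The groups did not overlap, but control siRNA replicate 3 lay close to TDP-43 siRNA replicate 1.

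Hnrnpf, which binds G-rich tracts, read 10767, 10956 and 10189 after TDP-43 siRNA, against 10973, 11118 and 11105 after control siRNA. These groups only just separated, the difference was -0.06 (SE 0.05, limma adjusted p = 0.671), and the other 3 probe sets of Hnrnpf lay slightly above 0. The related Hnrnph1 and Hnrnph2 were at 0.01 and -0.01. Hnrnpc, a binder of uridine tracts that keeps cryptic exons out, was among the best bounded genes, at -0.00 with a 95% interval from -0.10 to 0.10. Hnrnpl, Hnrnpll, Hnrnpr and Hnrnpu lay between -0.07 and 0.08.

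Ptbp1, a polypyrimidine tract binder that represses neural exons, was at 0.03 (95% interval -0.09 to 0.15), and its neural relative Ptbp2 was at -0.03 (95% interval -0.21 to 0.14). A dim probe set of each read lower with the groups apart, 1450443_at of Ptbp1 at -0.41 and 1423471_at of Ptbp2 at -0.47. Neither passed over the 23433 probe sets (limma adjusted p = 0.449 for Ptbp1 and 0.561 for Ptbp2). The signals of 1423471_at were only 22.4, 46.5 and 45.5 after TDP-43 siRNA, against 48.2, 55.3 and 63.3 after control siRNA.

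Hnrnpk, a KH-domain protein that binds C-rich RNA, was at 0.06 (95% interval -0.07 to 0.20), with signals of 13481, 13122 and 13197 after TDP-43 siRNA, against 11697, 13787 and 12732 after control siRNA. The control siRNA arrays spanned all of the TDP-43 siRNA arrays. The mouse Hnrnpk gene also carries the hairpin of miR-7a-1 in an intron, and miR-7 is an abundant microRNA of islets that restrains insulin secretion. The mature strand is shown because it is the best known product of this locus in beta cells, with the seed, bases 2 to 8, in capitals. RefSeq (GRCm38.p6) places it on the minus strand at chr13:58392841-58392863, within the span of Hnrnpk.
mmu-miR-7a-5p: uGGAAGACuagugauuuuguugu
The probe sets of Hnrnpk read its mRNA and give no level of the microRNA.

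The SR and Tra2 genes, whose proteins bind exonic enhancers, held 9 measured genes, of which, on the brightest probe set, 0 passed and 0 kept the groups apart, with 4 below 0 and 5 above and a median of 0.00. Over their 33 probe sets 21 lay below 0. The groups were apart on 5, near the share of 17.3% over all probe sets, and all 5 were lower with none past the threshold. These were 1428100_at of Srsf1, 1416151_at of Srsf3, 1447898_s_at and 1416721_s_at of Srsf6 and 1419543_a_at of Tra2b, the last at -0.07. Srsf3, the smallest SR protein and a regulator of mRNA export, was the lowest at -0.24 (SE 0.11, limma adjusted p = 0.400). It read 4956, 6366 and 5713 after TDP-43 siRNA, against 7664, 5857 and 6612 after control siRNA. TDP-43 siRNA replicate 2 lay above control siRNA replicate 2, and the other arrays of the groups stood apart. The value was -0.15 without TDP-43 siRNA replicate 1 and -0.14 without control siRNA replicate 1. The dimmer 1416151_at read 1681, 1579 and 1572 after TDP-43 siRNA, against 1925, 1876 and 1800 after control siRNA. There the groups did not overlap and the difference was -0.21 (SE 0.07), with a limma adjusted p of 0.249 over the 23433 probe sets.

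Srsf2, a regulator of exon inclusion that also acts in transcript elongation, was at -0.13 (SE 0.06, limma adjusted p = 0.417). Its signals were 7475, 7970 and 7648 after TDP-43 siRNA, against 9157, 8257 and 7924 after control siRNA. The groups overlapped through TDP-43 siRNA replicate 2 and control siRNA replicate 3. Srsf1, the founding member of the family, was at 0.00 on its brightest probe set, with a 95% interval from -0.11 to 0.11. Its probe set 1428100_at read 1485, 1479 and 1407 after TDP-43 siRNA, against 1784, 1740 and 1649 after control siRNA. On it the groups were apart, at -0.24 (SE 0.07, 95% interval -0.39 to -0.09, limma adjusted p = 0.194 over probe sets). Srsf4, Srsf5 and Srsf6 lay between 0.01 and 0.04, Tra2a and Tra2b at -0.06 and -0.05. Srsf10 was the highest at 0.13, with the widest interval of the family, from -0.15 to 0.40, and control siRNA replicate 3 the lowest of its 6 arrays.

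The TIA and ELAV genes encode proteins that bind U-rich and AU-rich RNA, TIA proteins at weak splice sites and ELAV proteins also in the stabilisation of mRNAs. On the brightest probe set all 5 lay below 0 and 0 of 5 passed. Over their 24 probe sets the directions were mixed, 12 below 0 and 12 above, and Tial1 lay above 0 on 4 of its 5, Tia1 on 3 of 5 and Elavl4 on 2 of 3. Elavl2, a neural ELAV gene, read 834, 954 and 857 after TDP-43 siRNA, against 1081, 871 and 1002 after control siRNA. The groups overlapped, and the difference was -0.15 (SE 0.10, limma adjusted p = 0.555). Elavl4, whose protein HuD is reported to act on insulin translation in beta cells, read 1129, 1218 and 874 after TDP-43 siRNA, against 1120, 1162 and 1174 after control siRNA. Its -0.11 (SE 0.11, limma adjusted p = 0.736) rests on TDP-43 siRNA replicate 3, and without that array the value was 0.03. The ubiquitous Elavl1, or HuR, was at -0.01. Tia1 and Tial1 were at -0.10 and -0.04, with TDP-43 siRNA replicate 1 the lowest array for both.

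Of the CELF, MBNL and RBFOX genes 0 of 5 passed. Mbnl2, a muscleblind protein that sets adult splicing patterns in brain, read 5612, 6053 and 5572 after TDP-43 siRNA, against 6378, 5995 and 6467 after control siRNA. The groups overlapped through the arrays numbered 2, and the difference was -0.13 (SE 0.06, limma adjusted p = 0.393). Of its 5 probe sets 4 lay below 0, among them 1455827_at at -0.19, where the groups did not overlap. Celf2, which competes with muscleblind proteins at several exons, pointed the other way at 0.13 (SE 0.06, limma adjusted p = 0.420). It read 2911, 3021 and 2738 after TDP-43 siRNA, against 2684, 2685 and 2537 after control siRNA. The groups did not overlap, but with the mean of its 4 probe sets Celf2 was at -0.02. Celf1 lay below 0 on all 5 of its probe sets, from -0.20 to -0.02. Mbnl1 was at -0.04 on its brightest probe set and at -0.74 on its other one, 1457924_at, where the groups overlapped. The difference between these probe sets was -0.70 (SE 0.45). Rbfox2 was at 0.07 on its brightest probe set, and at 0.22 and 0.29 on 2 others whose groups did not overlap.

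The KH-domain genes outside the hnRNP group held the second lowest and the highest of the 44 values, and 0 of 4 passed. Nova1, a neuronal regulator that binds YCAY clusters and is also expressed in beta cells, read 840, 825 and 813 after TDP-43 siRNA, against 962, 991 and 1063 after control siRNA. Every TDP-43 siRNA array lay below every control siRNA array, and the difference was -0.28 (SE 0.07, 95% interval -0.44 to -0.11, limma adjusted p = 0.147). Khdrbs3, or SLM2, which with its relatives sets neurexin exon choice in brain, read 3539, 3721 and 3652 after TDP-43 siRNA, against 3235, 3256 and 3373 after control siRNA. Here every TDP-43 siRNA array lay above every control siRNA array, at 0.15 (SE 0.06, limma adjusted p = 0.309). Both genes rest on a single probe set past the filter. Khdrbs1, or SAM68, was at -0.08, and Qk, a regulator of circular RNA formation, at -0.02.

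**Figure D2:**
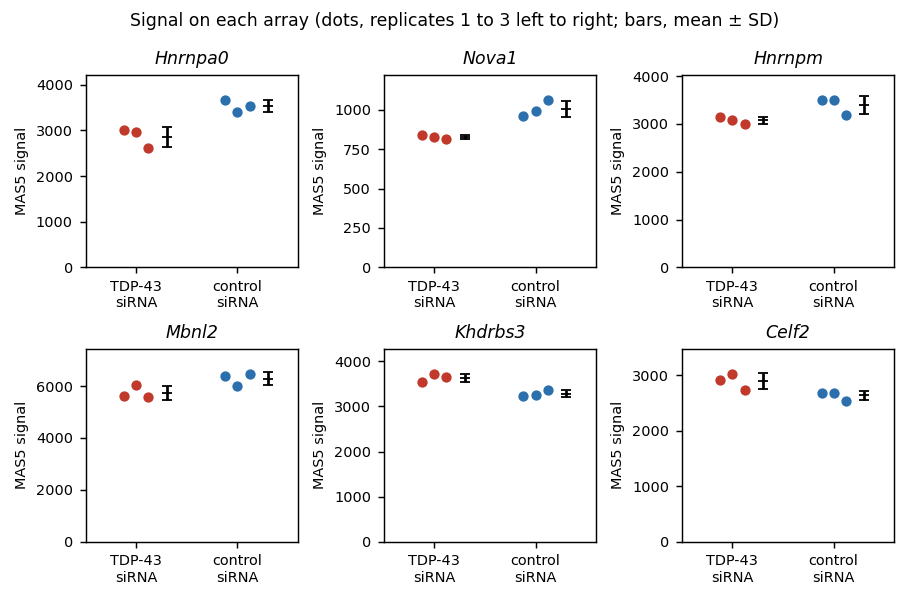
MAS5 signal (linear vertical axis from 0) of 6 splicing regulator genes on each array, with TDP-43 siRNA in red and control siRNA in blue. Dots are arrays and black bars are the mean ± SD of 3. Groups do not overlap for Hnrnpa0, Nova1 and Hnrnpm, which lie lower, or for Khdrbs3 and Celf2, which lie higher, and they overlap for Mbnl2.

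Sfpq and Nono, partner proteins of paraspeckles, the coactivator-like U2AF homologue Rbm39 and the microexon activator Srrm4 all lay below 0 on the brightest probe set, and 0 of 4 passed. Sfpq read 6942, 5733 and 5917 after TDP-43 siRNA, against 6489, 7951 and 6075 after control siRNA. Control siRNA replicate 2 stood above the rest, and the difference was -0.14 (SE 0.10, limma adjusted p = 0.639). Without that array it was -0.02. It was -0.08 without TDP-43 siRNA replicate 2 and -0.22 without TDP-43 siRNA replicate 1 or control siRNA replicate 3. Rbm39 read 3686, 3522 and 3775 after TDP-43 siRNA, against 3635, 4050 and 4078 after control siRNA, with control siRNA replicate 1 among the TDP-43 siRNA arrays. Its difference was -0.10 (SE 0.06, limma adjusted p = 0.582). Nono was at -0.06, with 2 of its 4 probe sets above 0. Srrm4, which drives inclusion of microexons in neurons and endocrine cells, read 87.3, 106 and 85.7 after TDP-43 siRNA, against 116, 102 and 96.9 after control siRNA. Its second probe set was at 0.42 where the brightest was at -0.16, both with overlapping groups.

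Seen by array, the slight lean of the list below 0 was not shared by all TDP-43 siRNA arrays. The mean deviation of the 44 genes from their own averages over 6 arrays was -0.04, 0.01 and -0.04 on TDP-43 siRNA replicates 1, 2 and 3, against 0.03, 0.04 and -0.00 on control siRNA replicates 1, 2 and 3 (log2). TDP-43 siRNA replicate 2 thus lay above control siRNA replicate 3. The lowest of the 6 values fell on TDP-43 siRNA replicate 3 for 14 genes and on replicate 1 for 13, but on replicate 2 for only 4. The highest fell on a control siRNA array for 34 of the 44. The 54 other splicing factors described below had mean deviations of -0.05, 0.03 and -0.00 on TDP-43 siRNA replicates 1, 2 and 3. On control siRNA replicates 1, 2 and 3 theirs were 0.00, 0.00 and 0.02. Such means and counts were not taken over all genes, so they have no background here.

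**Figure D3:**
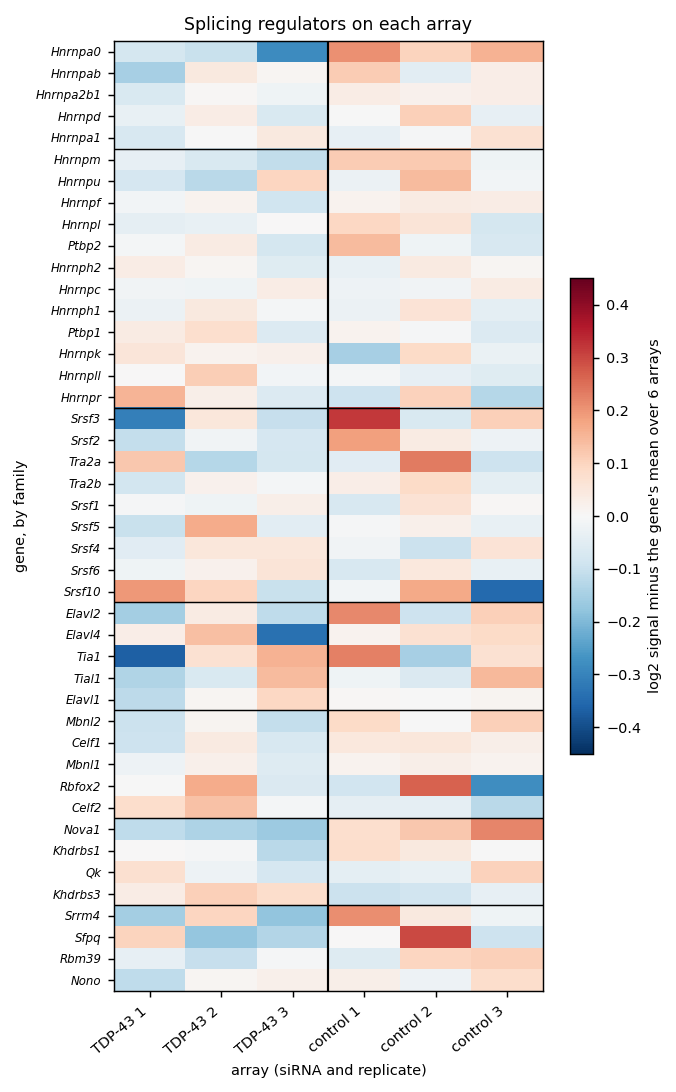
Log2 signal of each of the 44 splicing regulator genes (rows, by family) on each array (columns, TDP-43 siRNA left of control siRNA), minus that gene's mean over 6 arrays. Red is above and blue below the gene's mean. Hnrnpa0 and Nova1 are blue in all 3 TDP-43 siRNA columns and red in all 3 control siRNA columns, whereas Tia1 and Sfpq differ mostly by single arrays. Srsf3 runs the other way in the arrays numbered 2.

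The 44 genes had 161 probe sets past the filter, which read different stretches of their transcripts and were fitted together with all 23433 single-gene probe sets. Of the 161, 0 passed, where 0.649% of all probe sets did. At an unadjusted p below 0.05 there were 15, 14 lower and 1 higher, a smaller share than the 11.4% of all probe sets. The groups were apart for 25, 19 lower and 6 higher, again a smaller share than the 17.3% of all. How all probe sets split by direction was not counted, so the splits into lower and higher have no background here. Probe sets of a gene read the same RNA and are not independent of one another. Of the 36 genes with at least 2 probe sets, all probe sets lay below 0 for 9 and above 0 for 2, and 25 had both directions.

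Sfpq and Rbm39 were the genes with most probe sets that all pointed down. All 6 of Sfpq lay between -0.36 and -0.14. On 1423796_at the signals were 1028, 966 and 896 after TDP-43 siRNA, against 1322, 1289 and 1122 after control siRNA. These groups did not overlap, and the difference was -0.36 (SE 0.09, limma adjusted p = 0.137 over probe sets). All 11 of Rbm39 lay between -0.53 and -0.06, and the groups were apart on 1 of them, 1456386_at at -0.24. Conversely, all 4 of Srsf10 lay between 0.00 and 0.13, with overlapping groups on each.

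Srsf6, an SR protein reported to act in the survival of human beta cells, had the pair of probe sets with the smallest p. Its brightest probe set, 1448454_at, read 6127, 6299 and 6466 after TDP-43 siRNA, against 5911, 6427 and 6074 after control siRNA. That is a difference of 0.04, with the groups overlapping. The probe set 1447898_s_at read 2684, 2742 and 2785 after TDP-43 siRNA, against 3105, 3336 and 3196 after control siRNA, and 1416721_s_at read 2341, 2798 and 2788 after TDP-43 siRNA, against 3529, 3010 and 3385 after control siRNA. On both the groups were apart, at -0.23 and -0.32. The third, 1416720_at, was at -0.21 with slightly overlapping groups. None of the 4 passed on its own.

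Whether probe sets of a gene differed in their change was tested directly, on the log2 difference between each further probe set and the brightest. Of the 117 such pairs of splicing regulators 0 passed, as did 0% of all 10814 pairs, and 2 of the 117 had an unadjusted p below 0.05, against 6.99% of all pairs. Both belonged to Srsf6. Relative to 1448454_at, 1447898_s_at differed by -0.27 (SE 0.08, limma adjusted p = 0.519), 1416721_s_at by -0.36 (SE 0.12, limma adjusted p = 0.605) and 1416720_at by -0.25 (SE 0.11, limma adjusted p = 0.751). The next pair was of Srsf2, where the dim 1427816_at differed from the brightest by 0.53 (SE 0.25, limma adjusted p = 0.759). Which exons or 3' ends these probe sets read was not examined here, so nothing can be said of splice forms.

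**Figure D4:**
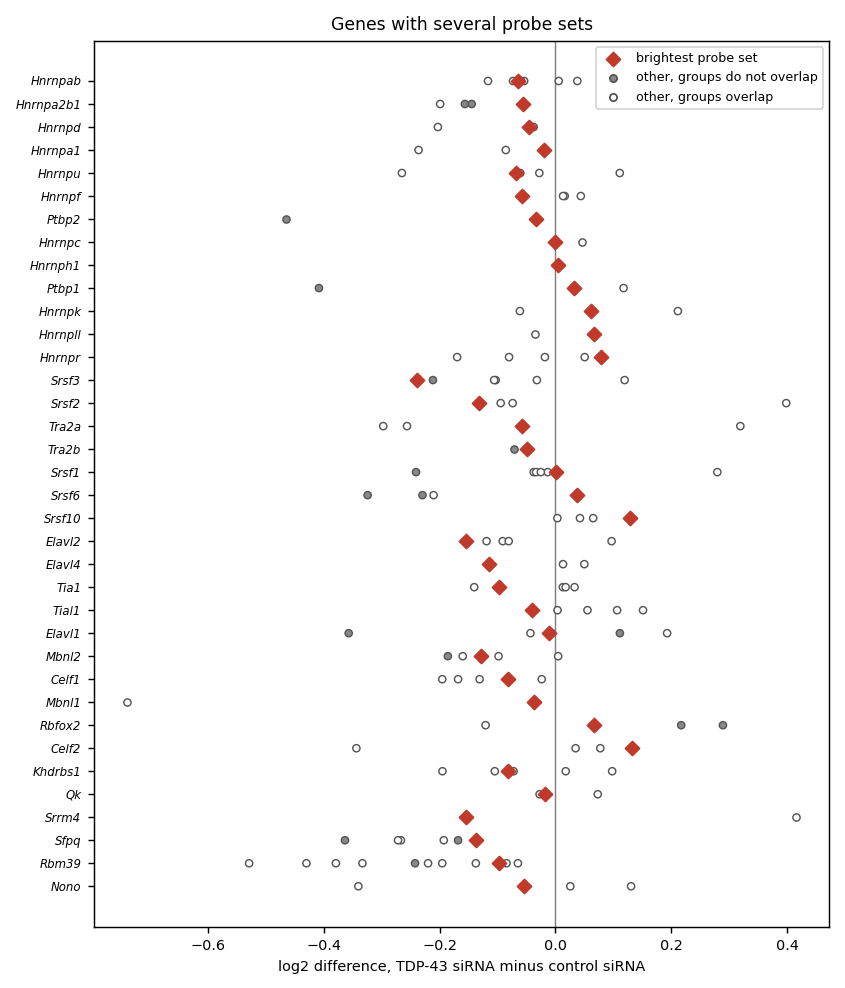
Log2 difference (TDP-43 siRNA minus control siRNA, horizontal axis) of every probe set past the filter for the 36 splicing regulator genes with at least 2. Red diamonds are the brightest probe set of a gene, filled circles other probe sets whose groups do not overlap, open circles those whose groups overlap. Sfpq and Rbm39 lie wholly below 0, and Srsf6 has its brightest at 0.04 and the other 3 between -0.32 and -0.21.

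As context, 60 other splicing factors were listed, among them SR kinases, further SR and RBM proteins and further members of the families above. Of the 54 measured, 0 passed, and at an unadjusted p below 0.05 there were 5, 4 lower and 1 higher, which is 9.26% against 12.6% of all genes. Their median was -0.03, and 30 of 54 lay below 0, which is 55.6% against 45% of all genes. Elavl3, the third neural ELAV gene, was nearest the threshold. It read 704, 666 and 740 after TDP-43 siRNA, against 536, 535 and 558 after control siRNA, at 0.37 (SE 0.08, limma adjusted p = 0.0881) and with the groups apart. Nova2, the relative of Nova1, was at -0.44 (limma adjusted p = 0.223), Esrp1, an epithelial splicing regulator, at -0.21 (0.241) and Celf3 at -0.17 (0.322), each with the 3 TDP-43 siRNA arrays below the 3 control siRNA arrays.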

How the data were processed

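MAS5 is named in the submitters' processing notes, without a version. The deposited values are its signal intensities, linear, for 45101 probe sets on 6 arrays. The platform annotation gave 34945 probe sets 1 gene and 932 several, and 9160 were not listed. Symbols were updated through Entrez numbers with RefSeq genes of GRCm38.p6 (34741 matched). Left out were 64 control probe sets and, by mean signal, the dimmest 40% of the others. Log2 was taken after adding 12, the 20th percentile. Genes, 23433 single-gene probe sets and probe set pairs were each fitted with limma 3.58.1 in R 4.3.3 (intensity trend, two-sided). The 46 genes and all lists were chosen with earlier results of these data known. Named on every array were genes with groups apart, those at an unadjusted p below 0.05 and the 2 of each of 7 families with the smallest p; of other factors and probe set pairs the 4 with the smallest p. Other genes and probe sets named were chosen after their values were seen. In simulations of the comparison over 12619 genes, 43% of genes changed by 0.5 and 81% changed by 1 were recovered, with 6 false calls. Over 10814 pairs, 59% changed by 1 were recovered, with 8 false calls. The changed genes were drawn at random from all genes and only raised. Their recovery is therefore not that of the 44 regulators, whose median SE was 0.06 against 0.10 for all genes. The deviations of same-numbered arrays correlated at -0.12, -0.14 and 0.24 for replicates 1, 2 and 3. Only those numbered 3 thus deviated together, and weakly, which leaves a pairing by number undetermined. Alternatives were other pseudocounts (1 and 42), filters, normalizations, variance models, array weights, thresholds, probe set means, a replicate block and arrays left out. Figures used matplotlib 3.10.9.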

Additional observations from a re-analysis of the deposited data

How the results depend on the processing

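The count of splicing regulator genes past the threshold was 0 under every alternative tried except an adjusted p threshold of 0.10, where it was 1, Hnrnpa0. The count of other splicing factors was likewise 0 except at 0.10, where it was 1, Elavl3. Leaving out each array in turn gave 0 to 0 for genes, other factors, probe sets and pairs. The number of splicing regulators at an unadjusted p below 0.05 ranged from 2 to 7; it was 2 without the intensity trend or without control siRNA replicate 1, and 3 without TDP-43 siRNA replicate 1 or 3. Hnrnpa0 ran from -0.35 to -0.24 with limma adjusted p from 0.0691 to 0.342, and Nova1 from -0.31 to -0.23. With the replicate number as a block 0 splicing regulators passed. The labels do not say whether the same numbers pair the arrays. Over all genes 123 passed with the block, against 94 without it. With the mean of probe sets Hnrnpf was at 0.00 and Srsf2 at 0.02, each on the other side of 0. Tardbp had an adjusted p of 0.0608 without the intensity trend. The number of arrays limits what could be detected, most of all for dim probe sets such as those of Srrm4.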
